A study of Mus musculus with 6 samples.

Results

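The expression of 10 apolipoprotein genes, Apoe, Apoa1, Apoa2, Apoa4, Apob, Apoc2, Apoc3, Apod, Apoh and Apom, was followed in aortas of vitamin E-treated ApoE-/- mice, untreated ApoE-/- mice and B6 mice. A probe set was included when the annotation of the array gave it 1 of these 10 symbols and no other gene. This held for 18 probe sets of the 45037 that are no array controls, and the 10 genes are 10 of the 18193 genes that the annotation names in this way. The mice were on a C57BL/6J background and 32 to 34 weeks old at the end of the study. Vitamin E-treated ApoE-/- mice, which lack a functional Apoe gene, had received tocopherol acetate with the diet (2000 IU/kg diet) for 7 months from an age of 4 to 6 weeks. Untreated ApoE-/- mice of the same age had overt atherosclerosis, and B6 mice served as non-transgenic control without the deletion. All 3 groups were fed a chow with 7% fat and 0.15% cholesterol, to which tocopherol acetate was added for the vitamin E-treated group only. Aortas were taken after perfusion and were dissected on ice. Each group has 2 arrays (Affymetrix MG430 2.0), and each array was hybridized with pooled RNA of 3 aortas, so that the spread between arrays is a spread between pools and not between single mice.

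Apolipoproteins are the protein part of the lipoproteins, which carry cholesterol and triglycerides in blood. Apob is the structural protein of chylomicrons and very low density lipoproteins, Apoa1 and Apoa2 are the main proteins of high density lipoproteins, the small C apolipoproteins regulate the lipases that unload triglycerides, and Apoe is the ligand by which remnant particles are taken up through receptors of the LDL receptor family. Most of these genes are expressed mainly in liver, and some in intestine, whereas Apoe is also made by macrophages, and Apod is a lipocalin made in many tissues with little expression in liver.

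The DNA letters before the transcription start are given for 5 of the genes, Apoa1, Apoa2, Apob and Apom, whose signal intensities were lower in ApoE-/- than in B6 aortas, and Apod, which had no call in any comparison. They are 250 bases of RefSeq, mouse assembly GRCm38.p6, on the strand of the gene, and 9 of the 10 genes matched the promoter table, Apoc3 not. Capitals mark matches on both strands to letters of 3 motifs. A core promoter element, which sets the place of the transcription start in many genes, was searched as TATAAA. The half-site of nuclear receptors was searched with the letters AGGTCA, and a variant form of this half-site was searched as GGGTCA. A site of HNF4A, a nuclear receptor of hepatocytes and enterocytes, was searched with the letters CAAAGTCCA and in a variant form as CAAAGGTCA, which contains the half-site.
Apoa1, chr9:46228380-46228629, plus strand: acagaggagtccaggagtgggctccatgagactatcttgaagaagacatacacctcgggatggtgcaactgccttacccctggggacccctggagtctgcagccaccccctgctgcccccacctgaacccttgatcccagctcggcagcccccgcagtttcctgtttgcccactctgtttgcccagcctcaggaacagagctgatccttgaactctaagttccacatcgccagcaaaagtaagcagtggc
Apoa2, chr1:171221314-171221563, plus strand: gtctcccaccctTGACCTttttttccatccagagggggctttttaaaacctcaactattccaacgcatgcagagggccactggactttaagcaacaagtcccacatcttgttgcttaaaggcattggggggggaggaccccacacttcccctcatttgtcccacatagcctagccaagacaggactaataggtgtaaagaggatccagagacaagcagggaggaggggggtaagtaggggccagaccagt
Apob, chr12:7977427-7977676, plus strand: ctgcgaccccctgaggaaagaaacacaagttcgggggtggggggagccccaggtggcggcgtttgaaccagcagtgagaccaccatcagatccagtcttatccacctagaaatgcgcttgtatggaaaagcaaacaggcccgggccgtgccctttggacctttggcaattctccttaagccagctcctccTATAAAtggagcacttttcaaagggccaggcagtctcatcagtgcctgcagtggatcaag
Apom, chr17:35131802-35132051, minus strand: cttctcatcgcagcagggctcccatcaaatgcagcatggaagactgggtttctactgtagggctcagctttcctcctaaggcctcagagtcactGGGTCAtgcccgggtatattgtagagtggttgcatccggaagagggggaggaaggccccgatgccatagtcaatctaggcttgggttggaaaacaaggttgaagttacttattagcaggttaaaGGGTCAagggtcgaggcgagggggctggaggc
Apod, chr16:31314809-31315058, minus strand: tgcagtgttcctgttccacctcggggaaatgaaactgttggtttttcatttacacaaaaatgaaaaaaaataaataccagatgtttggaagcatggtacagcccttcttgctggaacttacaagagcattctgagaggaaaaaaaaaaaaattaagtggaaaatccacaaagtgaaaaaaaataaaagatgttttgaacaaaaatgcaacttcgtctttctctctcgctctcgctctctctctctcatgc
The window of Apoa2 shown has a half-site 238 bases before its start, and a second RefSeq start of Apoa2, with a window at chr1:171224804-171225053, has no half-site but the core promoter element at 212 bases. Apom has 2 half-sites, at 156 and 32 bases. Apob holds the core promoter element 60 bases before its start, and the windows of Apoa1 and Apod hold no match. Over all 32851 windows of the same length, 23.8% hold a half-site, 12.4% the core promoter element and 0.807% an HNF4A site, which none of the windows of the 9 genes holds in these letters. A match is a description of the letters and not a site that was measured here.

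Signal intensities were tested on the log2 scale with limma for the 17909 probe sets whose mean was at least 100 in at least 1 group, after values under 20 were set to 20, and a call is an adjusted p under 0.05. Of the 18 apolipoprotein probe sets, 12 passed this limit and stand for 9 of the 10 genes. Apoa4 did not pass. Of the 9 genes, 5 (Apoe, Apob, Apoc2, Apoh and Apom) passed through the B6 arrays alone and had to be higher there to be tested, so that the counts, medians and sums below give no support by themselves. The 3 comparisons share arrays in pairs and are not independent.

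Between untreated ApoE-/- and B6 aortas, 11 of the 12 probe sets were lower in untreated ApoE-/- aortas and none was higher, also at an unadjusted p under 0.05 of limma and by the t-test, whereas 19.1% of all probe sets tested were lower and 21.7% higher. By gene, 8 of 9 fell and Apod had no call. The median log2 fold change of the 9 genes, each by its brightest probe set, was -3.12, against 0.03 for all probe sets tested. This median is the value of Apob, whose untreated ApoE-/- arrays were both under the floor, so that it is a bound. It also rests on the 5 genes that passed through the B6 arrays alone. In vitamin E-treated ApoE-/- compared with B6 aortas, the same count was found, with 11 of 12 probe sets lower, against 19.2% lower and 21.9% higher in all probe sets tested. The median was -2.70. These comparisons of whole aortas do not tell fewer cells of a type apart from less RNA per cell.

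Vitamin E-treated compared with untreated ApoE-/- aortas showed smaller differences. Higher in vitamin E-treated ApoE-/- aortas were 6 probe sets, the 4 of Apoa1 and those of Apoa2 and Apoc3, and 1 was lower, that of Apoe. In all probe sets tested, 8.52% were higher and 6.99% lower. The remaining 5 genes, Apob, Apoc2, Apod, Apoh and Apom, had no call. The median log2 fold change of the 9 genes was 0.11.

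**Figure D1:**
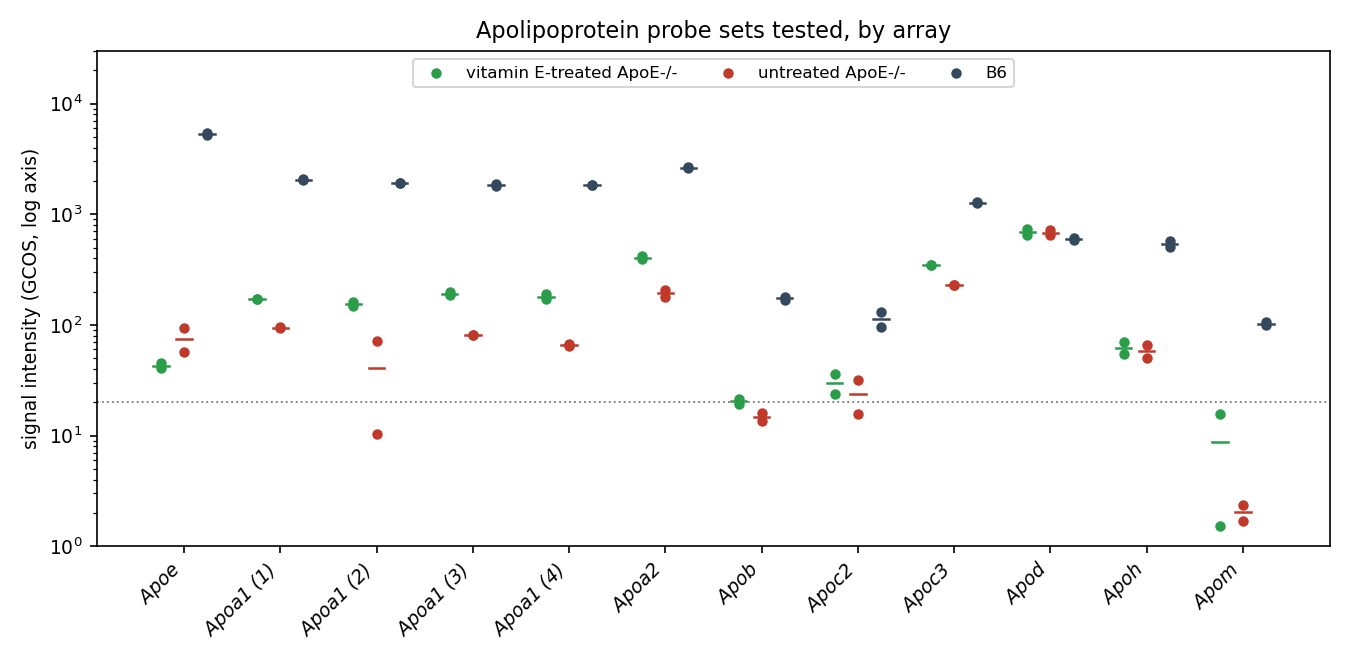
Signal intensity on a log axis of the 12 apolipoprotein probe sets tested, with 1 point per array, a line at the mean of each group of 2 arrays, and a dotted line at the floor of 20. The numbers after Apoa1 stand for its probe sets 1455201_x_at (1), 1419233_x_at (2), 1438840_x_at (3) and 1419232_a_at (4), and levels are not comparable between probe sets. Both B6 arrays lie above all 4 arrays of ApoE-/- aortas for every probe set other than that of Apod. For Apoe, Apob, Apoc2, Apoh and Apom, which passed the limit through the B6 arrays alone, this order of means was fixed beforehand. How many of all probe sets are apart in this way was not counted.

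Apoe, the gene inactivated in ApoE-/- mice, had signal intensities of 40.5 and 45.3 in vitamin E-treated ApoE-/-, 93.2 and 57.4 in untreated ApoE-/- and 5209 and 5432 in B6 aortas. The groups did not overlap, and the signal of both ApoE-/- groups was low on all 4 arrays, as their labels say. Untreated ApoE-/- aortas were 72.7-fold lower than B6 aortas (log2 fold change -6.18, SE 0.21, limma adjusted p = 2.2e-06), and vitamin E-treated ApoE-/- aortas were 124-fold lower (-6.96, SE 0.21, adjusted p = 1.4e-06). Where the probes lie relative to the inactivated part of the gene is not given in the sources used here. The further difference between vitamin E-treated and untreated ApoE-/- aortas was -0.77 on the log2 scale (SE 0.21, 95% confidence interval -1.26 to -0.29, adjusted p = 0.046). This call was lost in 10 alternatives of the processing, and without replicate 1 of the untreated ApoE-/- aortas the log2 fold change was -0.42 (adjusted p = 0.12).

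Among the apolipoproteins of high density lipoproteins, Apoa1 was measured by 4 probe sets. Apoa1 is the protein that takes up cellular cholesterol by way of Abca1 and activates Lcat. Its probe set 1455201_x_at had signal intensities of 171 and 171 in vitamin E-treated ApoE-/-, 94.9 and 94.1 in untreated ApoE-/- and 2076 and 2039 in B6 aortas. For 1438840_x_at they were 186 and 197 in vitamin E-treated ApoE-/-, 81.2 and 81.5 in untreated ApoE-/- and 1866 and 1788 in B6 aortas. The third, 1419232_a_at, gave 190 and 171 in vitamin E-treated ApoE-/-, 66.6 and 64.9 in untreated ApoE-/- and 1826 and 1832 in B6 aortas. The 3 groups were apart in the same order with each of these probe sets, with vitamin E-treated ApoE-/- aortas between the other groups but far nearer to untreated ApoE-/- aortas on the linear scale. The fourth, 1419233_x_at, gave 148 and 161 in vitamin E-treated ApoE-/-, 71.5 and 10.3 in untreated ApoE-/- and 1930 and 1900 in B6 aortas. Its low value on replicate 2 of untreated ApoE-/- aortas lies under the floor, and the other 3 probe sets do not show this difference between the replicates.

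Untreated ApoE-/- compared with B6 aortas had log2 fold changes of Apoa1 between -4.44 and -5.66 over the 4 probe sets, with limma adjusted p between 1.4e-07 and 0.00015. The value of -5.66 belongs to 1419233_x_at and rests on its low array, as it was -4.74 without replicate 2 of the untreated ApoE-/- aortas and -6.58 without replicate 1, while the other 3 probe sets lay between -4.44 and -4.80. In vitamin E-treated ApoE-/- compared with B6 aortas the range was -3.25 to -3.63, with adjusted p between 7.2e-07 and 0.0012. Vitamin E-treated aortas were higher than untreated ApoE-/- aortas by 0.86 (1455201_x_at, SE 0.08, adjusted p = 0.00095), 1.24 (1438840_x_at, SE 0.09, adjusted p = 0.00026), 1.45 (1419232_a_at, SE 0.10, adjusted p = 0.0002) and 2.03 (1419233_x_at, SE 0.49, adjusted p = 0.032) on the log2 scale. The probe sets therefore give the same direction and sizes from 1.81-fold to 4.08-fold. The largest rests on the same array, and without replicate 2 of the untreated ApoE-/- aortas it was 1.11, and its call was lost in 8 alternatives of the processing (adjusted p 0.058 to 0.29). Probe sets with the suffix x can bind related transcripts.

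Apoa2, the second main protein of high density lipoproteins, followed the same order. Its signal intensities were 390 and 423 in vitamin E-treated ApoE-/-, 207 and 179 in untreated ApoE-/- and 2653 and 2607 in B6 aortas, so that no group overlapped another. Vitamin E-treated aortas were 2.11-fold higher than untreated ApoE-/- aortas (log2 fold change 1.08, SE 0.09, limma adjusted p = 0.00048). Compared with B6 aortas, untreated ApoE-/- aortas were 13.7-fold lower (-3.77, SE 0.09, adjusted p = 4e-07) and vitamin E-treated ApoE-/- aortas 6.48-fold lower (-2.70, SE 0.09, adjusted p = 2.4e-06).

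Apom, a lipocalin of high density lipoproteins that carries sphingosine 1-phosphate, was near the limit in B6 aortas and under the floor elsewhere. Its probe set 1419095_a_at had signal intensities of 1.53 and 15.8 in vitamin E-treated ApoE-/-, 1.69 and 2.38 in untreated ApoE-/- and 105 and 100 in B6 aortas. Only a bound can be given for such values: untreated ApoE-/- aortas were at least 5.13-fold lower than B6 aortas (limma adjusted p = 0.00023), and so were vitamin E-treated ApoE-/- aortas (adjusted p = 0.00026). Between vitamin E-treated and untreated ApoE-/- aortas no fold is given, because all 4 arrays were under the floor. The other probe set of Apom, 1419096_at, was under the limit and had signal intensities of 34.5 and 42.1 in vitamin E-treated ApoE-/-, 46.5 and 5.61 in untreated ApoE-/- and 49.2 and 69.7 in B6 aortas. Here the B6 arrays were also the highest, but the distance to the other groups was small.

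Apob, the structural protein of the triglyceride-rich particles and of LDL, was low in all groups but clearly above the floor in B6 aortas only. With 1455593_at the signal intensities were 19.5 and 21.4 in vitamin E-treated ApoE-/-, 15.9 and 13.5 in untreated ApoE-/- and 170 and 179 in B6 aortas. Untreated ApoE-/- aortas were at least 8.72-fold lower than B6 aortas (limma adjusted p = 4.7e-05), as both of their arrays lay under the floor. Vitamin E-treated ApoE-/- aortas were lower than B6 aortas as well (adjusted p = 6.1e-05), but with 1 array under the floor and 1 just above it the size was not resolved. Between vitamin E-treated and untreated ApoE-/- aortas no fold is given and there was no call, because 3 of the 4 arrays were under the floor and the other just above it. The second probe set, 1457554_at, was under the limit and ranged over the 6 arrays between 1.76 and 65.9.

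Apoc3, an inhibitor of lipoprotein lipase and of remnant uptake, had signal intensities of 350 and 351 in vitamin E-treated ApoE-/-, 228 and 230 in untreated ApoE-/- and 1292 and 1257 in B6 aortas. The replicates lay close together and the groups were apart. Vitamin E-treated aortas were 1.53-fold higher than untreated ApoE-/- aortas (log2 fold change 0.61, SE 0.07, 95% confidence interval 0.45 to 0.78, limma adjusted p = 0.0022). Compared with B6 aortas, untreated ApoE-/- aortas were 5.56-fold lower (-2.48, SE 0.07, adjusted p = 1.1e-06) and vitamin E-treated ApoE-/- aortas 3.64-fold lower (-1.86, SE 0.07, adjusted p = 4.7e-06).

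Apoc2, the activator of lipoprotein lipase, was the least precise of the probe sets that fell against B6 aortas, apart from 1419233_x_at of Apoa1. It had signal intensities of 35.7 and 23.7 in vitamin E-treated ApoE-/-, 31.7 and 15.6 in untreated ApoE-/- and 131 and 94.9 in B6 aortas. Vitamin E-treated and untreated ApoE-/- aortas overlapped, with a log2 difference of 0.21 (SE 0.33, 95% confidence interval -0.56 to 0.98, limma adjusted p = 0.71). Untreated ApoE-/- aortas were lower than B6 aortas by a log2 fold change of -2.15 (SE 0.33, adjusted p = 0.002), and vitamin E-treated ApoE-/- aortas by -1.94 (SE 0.33, adjusted p = 0.0033). Both calls were lost without the filter on signal intensity, with adjusted p of 0.059 and 0.071. The sizes that involve untreated ApoE-/- aortas depend on the floor, as replicate 2 of them was under it.

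Apoa4, an intestinal apolipoprotein of chylomicrons that mouse liver makes as well, stayed under the limit in every group. Its probe set 1436504_x_at had 34.5 and 54.5 in vitamin E-treated ApoE-/-, 47.3 and 15.9 in untreated ApoE-/- and 96.9 and 65.0 in B6 aortas. The other, 1417761_at, had 3.98 and 1.95 in vitamin E-treated ApoE-/-, 8.09 and 2.85 in untreated ApoE-/- and 20.5 and 16.4 in B6 aortas. Both B6 arrays were above the 4 arrays of ApoE-/- aortas with both probe sets. In the fit without the filter, 1436504_x_at had a log2 fold change of -1.37 in untreated ApoE-/- relative to B6 aortas (SE 0.57, limma adjusted p = 0.28) and -0.87 in vitamin E-treated ApoE-/- relative to B6 aortas (adjusted p = 0.53), and 1417761_at, near the floor, had an adjusted p of 0.55 in both. None of the 6 apolipoprotein probe sets under the limit had a call in any comparison in that fit.

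Apoh, or beta-2-glycoprotein I, a phospholipid-binding plasma protein, was also lower in both ApoE-/- groups. Its probe set 1416677_at had signal intensities of 54.8 and 70.2 in vitamin E-treated ApoE-/-, 65.7 and 50.5 in untreated ApoE-/- and 510 and 568 in B6 aortas. Vitamin E-treated and untreated ApoE-/- aortas overlapped, and their log2 difference was 0.11 (SE 0.19, 95% confidence interval -0.34 to 0.55, limma adjusted p = 0.74). Untreated ApoE-/- aortas were 9.34-fold lower than B6 aortas (-3.22, SE 0.19, adjusted p = 2.9e-05) and vitamin E-treated ApoE-/- aortas 8.67-fold lower (-3.12, SE 0.19, adjusted p = 3.9e-05). The second probe set, 1447719_at, did not exceed 21.4 on any array.

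Apod was the exception. Its probe set 1416371_at had signal intensities of 645 and 741 in vitamin E-treated ApoE-/-, 719 and 644 in untreated ApoE-/- and 604 and 590 in B6 aortas. Both ApoE-/- groups overlapped each other and lay above the B6 arrays, without a call. The log2 fold change was 0.02 between vitamin E-treated and untreated ApoE-/- aortas (SE 0.09, 95% confidence interval -0.19 to 0.24, limma adjusted p = 0.9), 0.19 between untreated ApoE-/- and B6 aortas (SE 0.09, -0.03 to 0.40, adjusted p = 0.14) and 0.21 in vitamin E-treated ApoE-/- relative to B6 aortas (SE 0.09, -0.0026 to 0.43, adjusted p = 0.1). A fall of the size of the other genes lies outside both intervals against B6 aortas. The dim probe set 1444564_at was under the limit and had values between 49.7 and 73.1.

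**Figure D2:**
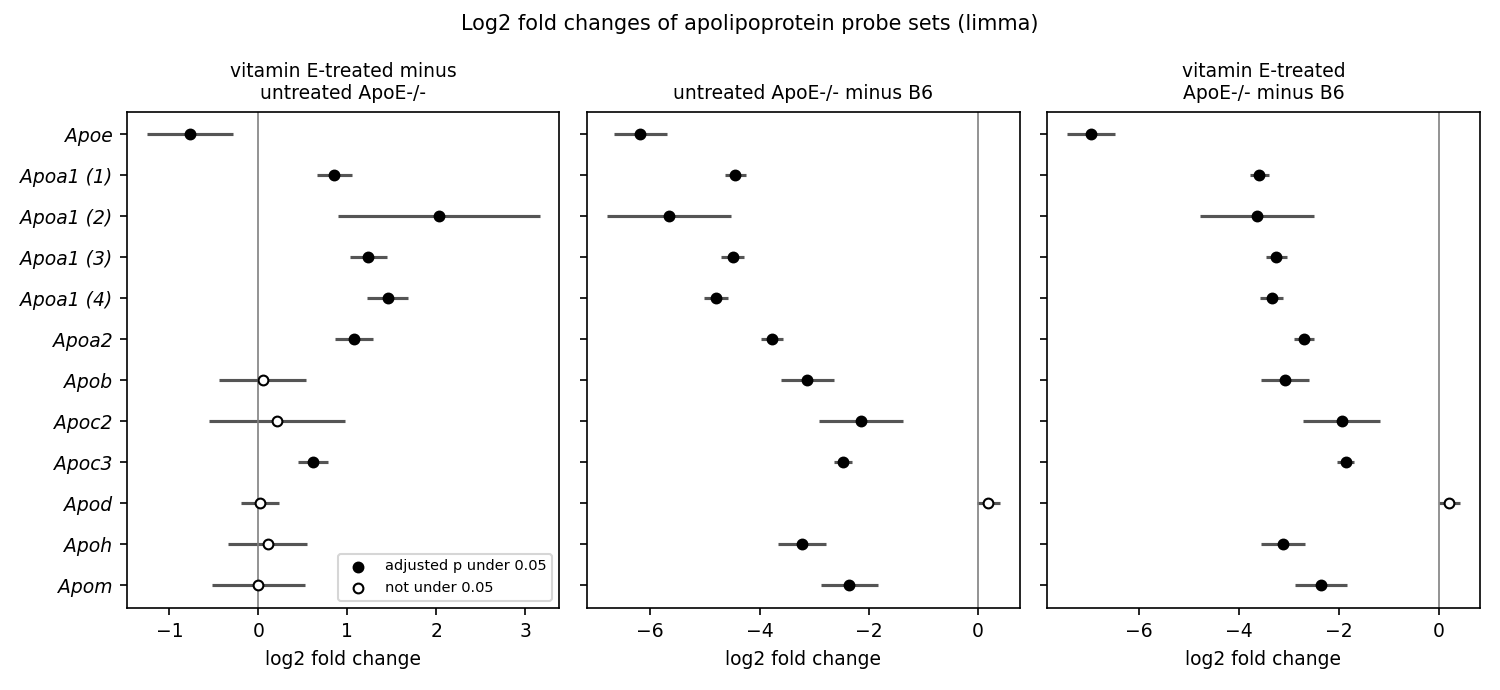
Log2 fold changes of the 12 probe sets in the 3 comparisons, with 95% confidence intervals of limma as lines, filled points for an adjusted p under 0.05 and open points for others. Apoa1, Apoa2 and Apoc3 lie to the right of 0 in vitamin E-treated compared with untreated ApoE-/- aortas, and only Apod is near 0 in both comparisons with B6 aortas. The points of Apob and Apom depend on the floor in all 3 panels, and that of Apom at 0 in the first panel stands for 4 arrays under it. Those of Apoc2 and Apoa1 (2) depend on it in the panels with untreated ApoE-/- aortas, as 1 untreated ApoE-/- array was under it.

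A further list of 19 apolipoprotein genes and relatives was looked up in the same way, of which 16 had a probe set and 11 were tested, 5 of these through the B6 arrays alone. In untreated ApoE-/- compared with B6 aortas, 6 of the 11 were lower, 2 higher and 3 had no call, with a median log2 fold change of -2.64. The shares of all probe sets tested were 19.1% lower and 21.7% higher. The 6 were Apoa5, Apoc1, Apoc4, Apof, Apon and Saa4, which encode plasma apolipoproteins, and their log2 fold changes lay between -2.64 and -2.98, where that of Saa4 is a bound because both untreated ApoE-/- arrays were under the floor. All of them apart from Apoc1 passed through the B6 arrays alone, so that their order against B6 aortas was fixed beforehand. The -2.64, which is also the median, is the value of Apof and depends on the floor, as 1 untreated ApoE-/- array was under it. Apoc1, a small apolipoprotein that liver and macrophages express, had signal intensities of 386 and 355 in vitamin E-treated ApoE-/-, 371 and 394 in untreated ApoE-/- and 2745 and 2501 in B6 aortas (untreated ApoE-/- minus B6 -2.78, limma adjusted p = 1.1e-06). Apoa5, which promotes lipolysis, had 65.9 and 85.8 in vitamin E-treated ApoE-/-, 47.5 and 63.1 in untreated ApoE-/- and 386 and 373 in B6 aortas (-2.79, adjusted p = 6.2e-05).

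Higher in untreated ApoE-/- relative to B6 aortas were Apol6, with a log2 fold change of 0.88 (limma adjusted p = 0.00056), and Saa3, an acute phase protein that mouse macrophages express, with 1.60 (adjusted p = 0.0088). Saa3 was under the limit in B6 aortas and passed it through the ApoE-/- arrays, so that its order gives no support by itself. Clusterin (Clu, or apolipoprotein J), which many tissues express, had signal intensities of 5380 and 6186 in vitamin E-treated ApoE-/-, 6410 and 6538 in untreated ApoE-/- and 6862 and 6803 in B6 aortas, with a log2 fold change of -0.08 between untreated ApoE-/- and B6 aortas (adjusted p = 0.48). Apoo and Apool, proteins of the mitochondrial inner membrane, had -0.01 (adjusted p = 0.89) and -0.13 (adjusted p = 0.28). Between vitamin E-treated and untreated ApoE-/- aortas none of the 11 genes was higher, and Apoo (-0.30, adjusted p = 0.024) and Apol6 (-0.47, adjusted p = 0.022) were lower. Of all probe sets tested, 8.52% were higher and 6.99% lower. The median of the 11 genes was -0.06. In vitamin E-treated ApoE-/- compared with B6 aortas 9 were lower and 2 higher, against 19.2% and 21.9% of all probe sets tested. Among the 9 were the 5 genes that passed through the B6 arrays alone. Clu, Apoo and Apool were also among them, with log2 fold changes of -0.24, -0.31 and -0.33.

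Several of these genes are neighbours in the genome. On chromosome 7 the order in GRCm38.p6 is Apoc2, Apoc4, Apoc1 and Apoe, with 1 other protein-coding gene between Apoc2 and Apoc4 and none between the others. On chromosome 9 it is Apoa1, Apoc3, Apoa4 and Apoa5, with 0 protein-coding genes between them. Apoa2, Apoh, Apob, Apod and Apom lie alone on chromosomes 1, 11, 12, 16 and 17. The neighbours of the inactivated Apoe gene, Apoc1, Apoc4 and Apoc2, were lower in untreated ApoE-/- relative to B6 aortas by log2 fold changes of -2.78, -2.68 and -2.15, and the 3 tested genes of the chromosome 9 cluster by -4.44 (Apoa1, 1455201_x_at), -2.48 (Apoc3) and -2.79 (Apoa5). Apoa2, Apoh, Apob and Apom, which are in neither cluster, were lower as well. Apoc2, Apoc4, Apoa5, Apoh, Apob and Apom passed through the B6 arrays alone, so that their order against B6 aortas was fixed beforehand. The values of Apob and Apom are bounds. The part of the position in the genome was not tested. Vitamin E-treated aortas were higher than untreated ApoE-/- aortas for Apoa1 and Apoc3 in the chromosome 9 cluster, while Apoa5 had a log2 difference of 0.46 (limma adjusted p = 0.16), and for Apoc2, Apoc4 and Apoc1 of the other cluster the differences were 0.21, 0.32 and -0.05 (adjusted p = 0.71, 0.49 and 0.73).

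**Figure D3:**
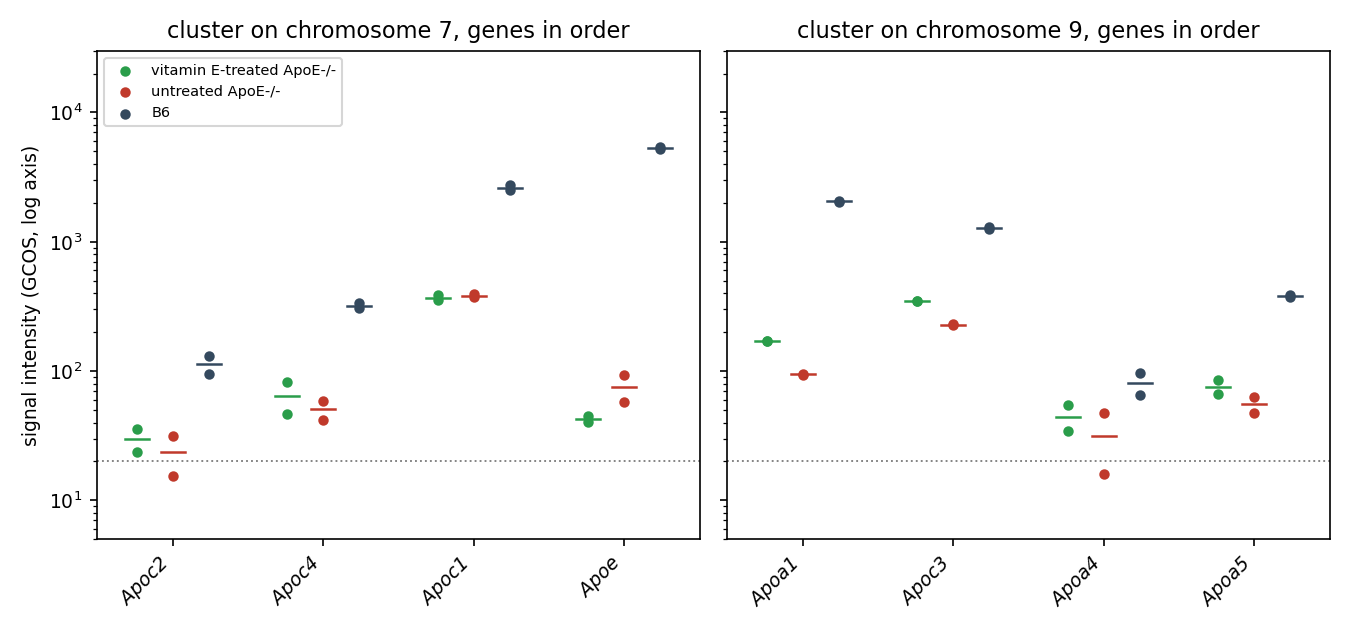
Signal intensity on a log axis of the apolipoprotein genes of the clusters on chromosomes 7 and 9 in gene order, 1 probe set per gene, with 1 point per array, a line at the group mean and a dotted line at the floor of 20. The B6 arrays are the highest for all 8 genes. For Apoe, Apoc2, Apoc4 and Apoa5, which passed the limit through the B6 arrays alone, this order of means was fixed beforehand, and Apoa4 was not tested. Vitamin E-treated lie above untreated ApoE-/- aortas without overlap for Apoa1, Apoc3 and Apoa5, of which Apoa5 had no call. How many of all probe sets are apart in this way was not counted.

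Because liver is the main source of most of these transcripts, a list of 22 hepatocyte genes that are no apolipoproteins was set beside them. Of these, 21 were tested, 13 through the B6 arrays alone, and all 21 were lower in untreated ApoE-/- relative to B6 aortas, with a median log2 fold change of -3.70 and a range from -5.06 to -0.46. In vitamin E-treated ApoE-/- compared with B6 aortas all 21 were lower too (median -2.86). Of all probe sets tested, 19.1% were lower in the former comparison and 19.2% in the latter. Albumin (Alb), the main plasma protein, had signal intensities of 379 and 485 in vitamin E-treated ApoE-/-, 243 and 273 in untreated ApoE-/- and 6097 and 6107 in B6 aortas. Ambp, the precursor of a plasma microglobulin and bikunin, had 45.2 and 42.9 in vitamin E-treated ApoE-/-, 14.4 and 20.9 in untreated ApoE-/- and 652 and 710 in B6 aortas. Its log2 fold change is the -5.06 of the range and depends on the floor. Fgb, a fibrinogen chain, was under the floor on all 4 arrays of ApoE-/- aortas, and Mat1a, the methionine adenosyltransferase of liver, on both untreated ApoE-/- arrays. As with the apolipoprotein genes, the order against B6 aortas was fixed beforehand for the genes that passed through the B6 arrays alone.

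Between vitamin E-treated and untreated ApoE-/- aortas 11 of the 21 hepatocyte genes were higher, 1 was lower and 9 had no call, with a median log2 fold change of 0.72. The shares of all probe sets tested were 8.52% higher and 6.99% lower. Cyp3a11, a drug-metabolizing cytochrome P450, was higher by 2.16 (limma adjusted p = 0.00026), Cyp2e1, another, by 0.84 (adjusted p = 0.01), Alb by 0.74 (adjusted p = 0.0079) and Ambp by 1.11 (adjusted p = 0.0049), whereas Kng1, the precursor of kinins, was lower by a log2 fold change of -0.69 (adjusted p = 0.0028). Cyp3a11 lay near the floor in untreated ApoE-/- aortas, with 24.8 and 26.1. The size for Ambp depends on the floor, as 1 untreated ApoE-/- array was under it. The summed signal intensity of the 21 genes was 3506 to 3844 in vitamin E-treated ApoE-/-, 2392 to 2617 in untreated ApoE-/- and 25849 to 26021 in B6 aortas. The sum of the 9 apolipoprotein genes was 1709 to 1861 in vitamin E-treated ApoE-/-, 1287 to 1457 in untreated ApoE-/- and 12750 to 12866 in B6 aortas. Both sums have the same order of groups, without overlap. That B6 aortas were the highest was partly fixed beforehand, as both sums hold genes that passed through the B6 arrays alone. The apolipoprotein sum also holds the inactivated Apoe, and both sums depend most on their brightest probe sets. The part of hepatocyte RNA in the apolipoprotein results was not tested. Of 10 genes of small intestine enterocytes 9 had a probe set, and 8 of these, among them Fabp2, Vil1 and Lct, stayed under the limit and did not exceed 68.5 on any array. The highest of the 8 was Slc5a1, a glucose transporter, which was above the floor on all arrays. The ninth, Reg3g, a secreted lectin, had signal intensities of 1763 and 1754 in vitamin E-treated ApoE-/-, 1974 and 1910 in untreated ApoE-/- and 697 and 690 in B6 aortas and was higher in untreated ApoE-/- relative to B6 aortas by a log2 fold change of 1.49 (adjusted p = 4.7e-06).

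Macrophages are a source of Apoe outside the liver. Of 15 macrophage genes, 12 were tested, and all 12 were higher in untreated ApoE-/- relative to B6 aortas, with a median log2 fold change of 0.89. The shares of all probe sets tested were 21.7% higher and 19.1% lower. Mmp12, a macrophage elastase under the floor on both B6 arrays, had at least 2.44 (limma adjusted p = 0.00012), Gpnmb, a glycoprotein of lipid-laden macrophages, 1.49 (adjusted p = 3.1e-05), Lyz2, a lysozyme, 0.78 (adjusted p = 0.00012) and Ctss, a lysosomal protease, 0.53 (adjusted p = 0.00055). Their summed signal intensity was 16647 to 16774 in vitamin E-treated ApoE-/-, 18960 to 19128 in untreated ApoE-/- and 10909 to 11032 in B6 aortas. Between vitamin E-treated and untreated ApoE-/- aortas 4 of the 12 were lower and none was higher, against 6.99% and 8.52% of all probe sets tested. Mmp12, which is among the genes called in both comparisons, passed the limit through the untreated ApoE-/- arrays alone. Its order in both was therefore fixed beforehand. Smooth muscle genes, which define the tissue on the labels, were bright in every group, with Acta2, the smooth muscle actin, between 8791 and 11061. Of the 8 tested, 1 was higher and none lower in untreated ApoE-/- relative to B6 aortas, with a median of 0.07. The higher one was Smtn (0.44, limma adjusted p = 0.0054), while Tagln had 0.00 (adjusted p = 0.98) and Lmod1 0.35 (adjusted p = 0.24). Of the 8, 3 were lower and none higher in vitamin E-treated relative to untreated ApoE-/- aortas. The sums were 18914 to 19930 in vitamin E-treated ApoE-/-, 20754 to 21261 in untreated ApoE-/- and 21612 to 22324 in B6 aortas.

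Genes that act on lipoproteins had smaller fold changes. Of 20 genes of lipoprotein assembly and remodelling in plasma, 10 were tested, and in untreated ApoE-/- compared with B6 aortas 4 were lower, 2 higher and 4 had no call (median -0.21). The shares of all probe sets tested were 19.1% lower and 21.7% higher. Pon1, an esterase that liver secretes onto high density lipoproteins, had signal intensities of 317 and 288 in vitamin E-treated ApoE-/-, 368 and 303 in untreated ApoE-/- and 926 and 964 in B6 aortas (untreated ApoE-/- minus B6 -1.50, limma adjusted p = 6.9e-05). Gpld1, a phospholipase that circulates with Apoa1, had 229 and 265 in vitamin E-treated ApoE-/-, 123 and 127 in untreated ApoE-/- and 299 and 278 in B6 aortas. It was the only 1 of the 10 with a call between vitamin E-treated and untreated ApoE-/- aortas (0.98, adjusted p = 0.0025), and it was lower in untreated ApoE-/- relative to B6 aortas (-1.20, adjusted p = 0.00027). Lipoprotein lipase (Lpl), the enzyme regulated by Apoc2 and Apoc3, fell by 0.41 on the log2 scale (adjusted p = 0.025), and Pltp, the phospholipid transfer protein, rose by 0.33 (adjusted p = 0.012), both in untreated ApoE-/- compared with B6 aortas. Mttp, which loads lipid onto Apob, and Lcat, which Apoa1 activates, did not exceed 64.6 and 72.6 on any array and were not tested.

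Of 21 genes of lipoprotein receptors and cholesterol export, 14 were tested. In untreated ApoE-/- compared with B6 aortas 4 were higher, 2 lower and 8 without a call (median 0.18), and in vitamin E-treated compared with untreated ApoE-/- aortas none was higher and 5 were lower. Abcg1, an exporter of cholesterol to high density lipoproteins, was higher by 0.71 in untreated ApoE-/- relative to B6 aortas (limma adjusted p = 0.0015), while Cd36, a scavenger receptor and fatty acid carrier (-0.33, adjusted p = 0.0046), and Lrpap1, the chaperone of LDL receptor family members (-0.22, adjusted p = 0.033), were lower. Msr1, a scavenger receptor of macrophages, passed the limit through the B6 arrays alone and had -0.60 without a call (adjusted p = 0.12).

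The list of transcription factors that are known to act on apolipoprotein genes held 18 genes, of which 10 were tested. In untreated ApoE-/- compared with B6 aortas 4 were higher and 3 lower (median 0.13), and in vitamin E-treated compared with untreated ApoE-/- aortas 1 was higher and 3 were lower. The shares of all probe sets tested were 21.7% and 19.1% in the former comparison, and 8.52% and 6.99% in the latter. Hnf4a, the nuclear receptor named above for its site, had signal intensities of 14.8 and 54.4 in vitamin E-treated ApoE-/-, 24.6 and 22.5 in untreated ApoE-/- and 121 and 125 in B6 aortas. It passed the limit through the B6 arrays alone and was lower in untreated ApoE-/- relative to B6 aortas by a log2 fold change of -2.38 (limma adjusted p = 0.004). Srebf2, which activates sterol synthesis, was higher in untreated ApoE-/- relative to B6 aortas (1.18, adjusted p = 0.00018), as was Cebpa, a factor of hepatocytes, adipocytes and myeloid cells (0.42, adjusted p = 0.0054). Srebf1, the factor of fatty acid synthesis, had -0.15 without a call (adjusted p = 0.12) and was lower in vitamin E-treated relative to untreated ApoE-/- aortas (-0.39, adjusted p = 0.012).

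The genes whose profile over the 6 arrays was most like that of each apolipoprotein gene were found by the root mean square distance between log2 profiles centred on their own means, among 10442 genes. This is a description over 6 arrays of 3 groups. For Apoa1 they were Serpina1c, a protease inhibitor of plasma, at 0.09, Akr1c6 at 0.12 and Alb at 0.15, and for Apoa2 they were Ttr, the plasma carrier of thyroid hormone, at 0.13, Serpina1b at 0.13 and Hpd at 0.18. Apob was nearest to Ahsg, or fetuin A, at 0.07, Cyp2d26 at 0.08 and Ugt2b5 at 0.11, and Apoc3 to Aqp9, a glycerol channel, at 0.08, Rdh9 at 0.13 and Cyp4a14 at 0.14. For Apoh they were Apob at 0.14, Gnmt at 0.19 and Cyp2d26 at 0.19, and for Apom, with 4 arrays at the floor, Slc10a1 at 0.03, Cyp2b13 at 0.04 and Slc2a2 at 0.07. Apoe had no near neighbour, as its closest genes, Ambp, Alb and Fgb, lay at 1.26 to 1.33, and Apoc2 had Lrmda at 0.19, Chrna7 at 0.23 and Minar2 at 0.28. Apod, which hardly varied, lay at 0.02 to 0.03 from Get4, Trmo and Tmem106a.

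Measures of the arrays also differed between the groups. Replicate arrays correlated with a Pearson coefficient of 0.984 in vitamin E-treated ApoE-/-, 0.991 in untreated ApoE-/- and 0.992 in B6 aortas, and the mean signal intensity was 305 to 319. The signal of 18S ribosomal RNA was 200.2 and 184 in vitamin E-treated ApoE-/-, 88.0 and 101 in untreated ApoE-/- and 580 and 595 in B6 aortas, which is the order of groups of Apoa1, Apoa2 and Apoc3. The Gapdh 3' to 5' ratio was 1.15 and 1.24 in vitamin E-treated ApoE-/-, 1.03 and 1.06 in untreated ApoE-/- and 1.35 and 1.34 in B6 aortas, whereas the beta-actin ratio had another order, with 1.64 and 1.64 in vitamin E-treated ApoE-/-, 1.78 and 1.88 in untreated ApoE-/- and 2.01 and 2.06 in B6 aortas. Poly-A RNA added before labelling had 0.243 to 0.382 times the signal in untreated ApoE-/- compared with B6 aortas and 1.09 to 1.26 times the signal in vitamin E-treated compared with untreated ApoE-/- aortas, whereas the controls added at hybridization had 0.816 to 1.15 and 1.06 to 1.14 times. The part of these measures in the apolipoprotein results was not tested. The sample numbers of the vitamin E-treated arrays lie in a range apart from those of the untreated ApoE-/- and B6 arrays. When the arrays of each group were processed is not given here, and a difference in handling between groups cannot be told apart from the group.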

How the data were processed

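Total RNA of aortas was measured on 6 arrays (Affymetrix MG430 2.0), 2 per group with RNA of 3 aortas each. The intensity values were deposited by the authors as signals of GCOS, scaled per array to a common target, on a linear scale. After 64 array controls were left out, 45037 probe sets remained, of which 34945 have 1 gene symbol, 932 several and 9160 none in the array annotation. Of those with 1 symbol, 34741 matched RefSeq (GRCm38.p6) by Entrez ID. The log2 scale was used with a floor of 20, and 17909 probe sets, whose group mean reached 100 in any group, were tested. limma 3.58.1 (R 4.3.3) was used to fit the 3 group means over all arrays, with a trended prior on the variance (3 residual and 4.46 prior degrees of freedom). P values were adjusted over all probe sets tested (Benjamini-Hochberg). With 2 against 2 arrays an exact permutation test cannot go below p = 0.333, so none is given. Folds against a group with both arrays under 20 were computed against 20 and are bounds. The number of arrays limits the precision.

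A gene of a list was represented by its brightest probe set. The 11 lists (165 entries) hold other apolipoproteins, lipoprotein assembly and remodelling, receptors and cholesterol export, transcription factors, and genes of hepatocytes, enterocytes, macrophages, fibroblasts, Schwann cells, adipocytes and smooth muscle. The genes named are all 10 apolipoprotein genes, every tested gene of the other apolipoproteins, per list its 2 brightest genes and its 2 with the highest absolute fold change in untreated ApoE-/- relative to B6 aortas, and the 3 nearest profiles of each apolipoprotein gene. Kng1, Fgb, Mat1a, Mttp, Lcat, Slc5a1, Fabp2, Vil1 and Lct were named after their values were seen. The apolipoprotein genes and the lists were chosen with earlier results of these data known. As alternatives, arrays were quantile-normalized or centred on the median, the floor was set to 50 or 5, the filter was dropped or applied to the mean over 6 arrays, the variance trend was left out, the fit was limited to the groups of a comparison, the replicate number was entered as block, single arrays were removed, genes were reduced to 1 probe set, and the methods' t-test was run. Scripts were tested on simulated data. Captopril arrays were not analysed here, and present calls were not used. Motifs were searched with Python 3.11.15.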

Additional observations from a re-analysis of the deposited data

How the results depend on the processing

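The number of apolipoprotein probe sets called in vitamin E-treated compared with untreated ApoE-/- aortas was 7 in the reported fit, 4 with 1 probe set per gene, 2 by the methods' t-test at its own thresholds and 0 after Benjamini-Hochberg adjustment of it (5 at an unadjusted p under 0.05), and 5 to 7 when 1 array was left out. Compared with B6 aortas it was 11 for untreated ApoE-/- aortas with each array left out, and 11 to 12 for vitamin E-treated ApoE-/- aortas, where the adjusted t-test gave 3. Over all probe sets, the calls between vitamin E-treated and untreated ApoE-/- aortas were 2777, and 949 without the filter, 1700 in a fit of only these groups, 1828 with 1 probe set per gene, 184 and 0 by the t-test at its own thresholds and after adjustment (3551 at an unadjusted p under 0.05), and 817 to 3506 with 1 array left out. The lowest came without either untreated ApoE-/- array (867 and 817), and 1645 and 1657 without either B6 array. For untreated ApoE-/- compared with B6 aortas they were 7305, and 4494 without the filter, 4606 with 1 probe set per gene, 789 and 2156 by the t-test, and 4326 to 8777 with 1 array left out. For vitamin E-treated ApoE-/- compared with B6 aortas they were 7368, and 4464, 4758, 586 and 67 in the same order, and 4332 to 7470. The cause was not tested.

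Of the log2 fold changes of the 12 probe sets under these alternatives and the counts of calls apart, those of Apoc2, Apod and Apoh in vitamin E-treated compared with untreated ApoE-/- aortas changed sign, none of them with a call. With 1 array left out, Apoc2 ranged from -0.12 to 0.54, Apod from -0.077 to 0.12 and Apoh from -0.084 to 0.30, and the negative values came without replicate 2 of untreated ApoE-/- aortas for all 3, without replicate 1 of vitamin E-treated ApoE-/- aortas for Apoc2, and without replicate 2 of them for Apod and Apoh. Apoe lost its call between vitamin E-treated and untreated ApoE-/- aortas in 10 alternatives (adjusted p 0.06 to 0.31), and 1419233_x_at of Apoa1 in 8 (0.058 to 0.29). Apod gained one against B6 aortas without replicate 1 of vitamin E-treated ApoE-/- aortas (0.31, limma adjusted p = 0.03). In all, 530 values kept their direction and side of the threshold, 21 lost a call, 1 gained one and 6 changed sign.

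Deviations of arrays with the same replicate number correlated by 0.055, -0.098 and 0.054 between groups, so that no clear deviation shared by number was seen. Whether arrays of the same number were handled together is not given here. With the replicate number as a block 6, 11 and 11 apolipoprotein probe sets were called, and the call of Apoe between vitamin E-treated and untreated ApoE-/- aortas was lost (adjusted p = 0.06).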

Other observations

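As a background, 21.7% of the 17909 probe sets were called higher and 19.1% lower in untreated ApoE-/- relative to B6 aortas. For vitamin E-treated relative to untreated ApoE-/- aortas, this background was 8.52% higher and 6.99% lower. Among genes of other cells of the vessel wall and its surroundings, adipocyte genes were bright in all groups. Of 8 tested in untreated ApoE-/- compared with B6 aortas, 2 were higher and 3 lower (median log2 fold change -0.14), with Retn (resistin) at -0.86 (limma adjusted p = 0.00035), Adipoq (adiponectin) at -0.51 (adjusted p = 0.0016) and Lep (leptin) at 1.29 (adjusted p = 0.00018), while Fabp4, a fatty acid carrier, had -0.21 without a call (adjusted p = 0.14). In vitamin E-treated compared with untreated ApoE-/- aortas 3 were lower, among them Lep by a log2 fold change of -0.82 (adjusted p = 0.0046), and none was higher. Of 11 adventitial fibroblast genes 3 were higher and 2 lower in untreated ApoE-/- relative to B6 aortas, which is near the shares of all probe sets tested. Col1a1, a chain of collagen I, had 1.61 (adjusted p = 8.7e-06) and the proteoglycan Lum 0.69 (adjusted p = 0.022), whereas Col1a2, the other chain, had -0.17 (adjusted p = 0.12) and Dcn, a proteoglycan, -0.15 (adjusted p = 0.12). In vitamin E-treated compared with untreated ApoE-/- aortas 3 were lower, with Col1a1 at -0.72 (adjusted p = 0.0011). Of 5 Schwann cell genes 1 was higher and 3 lower in untreated ApoE-/- relative to B6 aortas, with S100b, a calcium-binding protein, at 1.19 (adjusted p = 8.5e-05) and the sodium channel Scn7a at -0.75 (adjusted p = 0.00044). Between vitamin E-treated and untreated ApoE-/- aortas 2 of these 5 were lower, S100b (-0.65, adjusted p = 0.0044) and Pmp22, a myelin protein (-0.39, adjusted p = 0.0072).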
